A study of Rattus norvegicus with 4 samples.

Results

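Granzymes and the genes that work with them in cytotoxic lymphocytes were described across small intestine of rats given compost extract and of untreated rats. The genes were chosen by name: Gzma, Gzmb, Gzmc, Gzmf, Gzmk, Gzmm, Prf1, Nkg7, Klrd1 and Ctsw, matched to the gene names carried by the array. Of the 10 names, 9 were found, among 24309 genes and unnamed transcripts tested, on 11 of the 41012 gene probes. All 11 probes were well above background on all 4 arrays, and each was among the 28410 probes tested. No probe carried the name Gzmf. A probe named Gzmg on the array holds an accession that RefSeq now gives to Gzmf, and it is described beside the named genes. The choice was made after group differences and array levels of these same data had been seen, so the values below are a description.

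The compost group was 2 male Wistar rats, an outbred stock, that drank tap water with compost extract at 1% (v/v) over 12 weeks, starting at 3 weeks of age. The control group was 2 male Wistar rats of the same age kept on tap water alone. RNA came from small intestine without Peyer's patches, and the labels do not say which stretch was taken. Each rat had 1 one-colour Agilent array, and the 4 arrays shared 1 slide on which the groups lay at separate positions. An effect of position on the slide and an effect of the extract cannot be told apart. A level is the log2 processed intensity of a probe minus the 75th percentile of its array, so 0 stands for the intensity at that percentile, and levels of different probes cannot be set against each other. Every difference is compost minus control on the log2 scale, with the standard error (SE) of limma's fit over all tested probes. Between 66.5% and 71.0% of gene spots per array were well above background, and the number of arrays limits the precision. The tissue label was checked against epithelial markers: Epcam read 7.76 and 7.66 in the compost rats against 7.83 and 7.64 in the control rats, and the enterocyte gene Fabp1 read 8.55 and 8.82 in the compost rats against 8.96 and 8.95 in the control rats. The brush border genes Lct and Alpi were well above background in both control rats and in no compost rat. Even in the control rats their levels were low and spread, at -2.99 and -4.20 for Lct and -1.87 and -4.50 for Alpi. Neither was called by limma.

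Cytotoxic T cells and natural killer cells carry granules that hold perforin, which opens the target cell membrane, and granzymes, serine proteases that act inside the target. Granzyme A cuts after basic residues and granzyme B after aspartate, where it activates caspases. In the intestine the epithelium itself holds many such cells, the intraepithelial lymphocytes, most of which carry CD8. In rodents the genes of granzymes B, C and their relatives sit in 1 cluster with the mast cell proteases, and RefSeq places the cluster on rat chromosome 15. It lists 27 serine protease genes and pseudogenes there, 12 of them named as granzymes, so a probe for one member may also bind transcripts of a near copy.

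Granzyme B stood higher in both compost rats than in both control rats. Its probe read 2.86 and 2.78 in the compost rats against 1.40 and 1.64 in the control rats, a difference of 1.30 ± 0.19 SE or 2.45-fold (95% interval 0.80 to 1.79). The groups were 1.14 log2 units apart at their nearest arrays, more than the 0.08 between the compost rats and the 0.23 between the control rats. A second probe that the array also names Gzmb, described there as granzyme-like protein I, showed the same order at a lower signal. It read -0.11 and -0.28 in the compost rats against -1.21 and -1.43 in the control rats, a difference of 1.13 ± 0.19 SE. A transcript named RGD1562700 and described as like the natural killer cell protease RNKP-1, a synonym of granzyme B in RefSeq, read -0.61 and -0.67 in the compost rats against -1.59 and -1.92 in the control rats (1.12 ± 0.20 SE). A further transcript, XM_224224, also described as like RNKP-1, read -1.33 and -1.30 in the compost rats against -2.10 and -2.57 in the control rats (1.02 ± 0.23 SE). The 2 RNKP-1-like probes were picked after their values had been seen. All 4 probes target related sequences and may share transcripts, so they are not independent measurements. Both compost arrays lay above both control arrays in 4 of the 11 named probes and in 12.4% of all tested probes. The 4 were Gzmk and the granzyme B, granzyme-like protein I and granzyme-like protein III probes, which the array all names Gzmb. They lay at least 0.8 log2 units above in 2 of the 11, both of them Gzmb probes, and in 0.447% of all tested probes. Counted by gene at the brightest probe, both compost arrays lay above both control arrays in 2 of the 9 genes and in 12.7% of all genes.

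**Figure D1:**
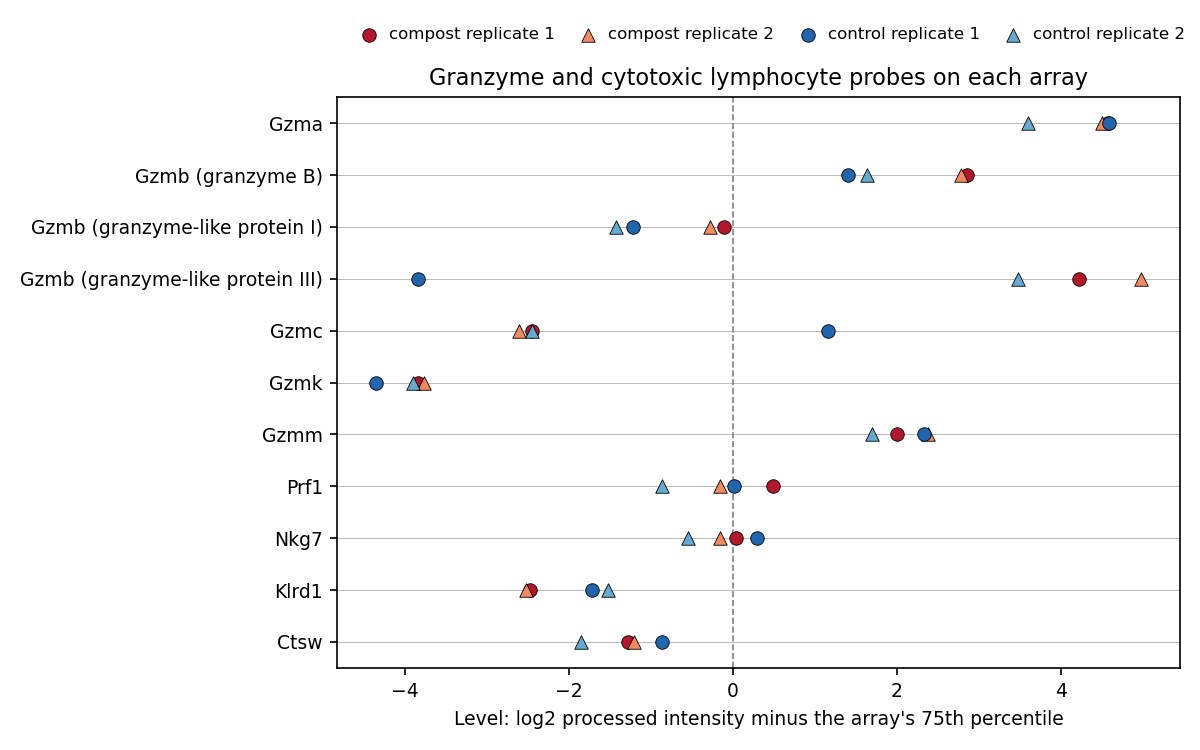
Level of each of the 11 probes (horizontal axis, log2 processed intensity minus the 75th percentile of the array) in compost rats (red and orange) and control rats (dark and light blue), 1 point per rat. Granzyme B and granzyme-like protein I show both compost rats above both control rats, Klrd1 shows the opposite order, and 1 control rat stands alone for granzyme-like protein III and Gzmc.

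The third probe named Gzmb, described on the array as granzyme-like protein III, was set apart by 1 rat. It read 4.21 and 4.98 in the compost rats, against -3.84 in control replicate 1 and 3.47 in control replicate 2. In deposited intensity these were 18332 and 23025 in the compost rats and 53.9 and 8434 in the control rats, so 3 rats had a bright spot and 1 had a dim spot that was still well above background. Control replicate 1 lay 7.31 log2 units, or 159-fold, below the nearest other array. Only 2 of the 28410 tested probes, this one included, lay as far below the other arrays in that rat. The difference between the control rats ranked 3 among all tested probes. The difference between the groups was 4.78 ± 2.42 SE, and leaving out control replicate 1 gave 1.13 while leaving out control replicate 2 gave 8.43. The other Gzmb probes did not share this step: granzyme B and granzyme-like protein I differed by 0.23 and -0.21 between the control rats (replicate 2 minus replicate 1). RefSeq's table used here gives no gene to the accession of this probe, X76996, beyond the array's own name.

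Gzmc, granzyme C, was set apart by the same rat in the other direction. It read -2.45 and -2.60 in the compost rats, against 1.16 in control replicate 1 and -2.45 in control replicate 2. Control replicate 1 lay 3.61 log2 units, or 12.2-fold, above the nearest other array, a distance that 5 of the tested probes reached in that rat. The remaining 3 rats lay within 0.15 log2 units of each other. The difference of -1.89 ± 1.20 SE therefore rested on control replicate 1, and it was -0.08 without that rat. Both compost arrays lay below both control arrays, but by 0.01 log2 units. The related probe Gzmg, which RefSeq assigns to Gzmf, read -3.10 and -2.93 in the compost rats against -2.40 and -3.23 in the control rats, with control replicate 1 again highest, and differed by -0.20 ± 0.33 SE. A probe described as like granzyme N read -4.55 and -3.82 in the compost rats against -4.26 and -4.47 in the control rats.

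**Figure D2:**
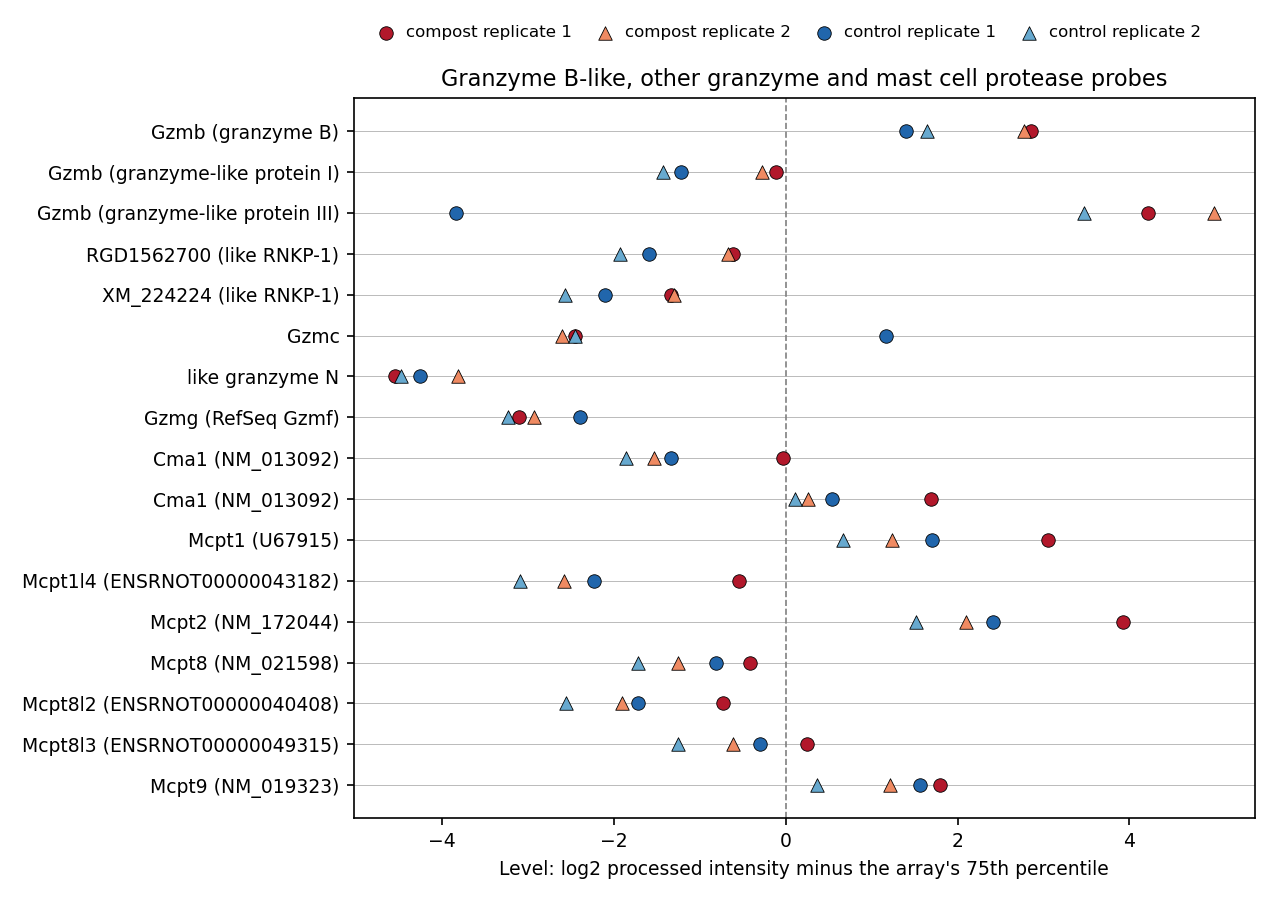
Level (horizontal axis, log2 processed intensity minus the 75th percentile of the array) of granzyme B-like probes, other granzyme probes and mast cell protease probes that were well above background on all 4 arrays, 1 point per rat. All 5 granzyme B-like probes have both compost rats above both control rats, with control replicate 1 far below the other rats for granzyme-like protein III, while every mast cell protease probe has compost replicate 1 highest and control replicate 2 lowest.

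Mast cell proteases are coded in the same cluster and could bind related probes, so their values are set beside the granzymes. All 9 probes of Mcpt and Cma1 genes that were well above background on all 4 arrays had compost replicate 1 highest, and in all 9 control replicate 2 was lowest. The 9 probes stand for fewer genes, since Cma1 has more than 1 probe and the probes named Mcpt1 and Mcpt2 both go to Mcpt1. The probe named Mcpt2, a protease of mucosal mast cells, which RefSeq now gives to Mcpt1, read 3.93 and 2.10 in the compost rats against 2.41 and 1.52 in the control rats. Mcpt8, a basophil protease in the mouse, read -0.42 and -1.26 in the compost rats against -0.81 and -1.72 in the control rats. In neither did the groups separate. Of the 11 named probes, 2 had this order of the 4 rats, granzyme-like protein I and Prf1, and so did RGD1562700, while the granzyme B probe had control replicate 1 lowest. The part of mast cell protease transcripts in these probes was not tested. Nor was the share of all tested probes with this order of the rats counted, so neither count can be read as an excess. The mast cell and basophil list, with 14 of 18 names measured, summed to 30.6 and 12.7 times the 75th percentile intensity in the compost rats and to 15.3 and 9.82 times in the control rats. Such a sum, here and for the lists below, is weighted toward the brightest probes and does not measure the amount of a cell type.

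Gzma, Gzmm and Gzmk, granzymes coded outside that cluster, did not separate the groups beyond the spread between rats. Gzma read 4.58 and 4.50 in the compost rats against 4.59 and 3.59 in the control rats, a difference of 0.45 ± 0.37 SE (95% interval -0.52 to 1.42). Here 3 rats were nearly level and control replicate 2 was low. Gzmm, which codes a granzyme of natural killer cells that cuts after methionine or leucine, read 2.01 and 2.38 in the compost rats against 2.33 and 1.70 in the control rats (0.18 ± 0.30 SE). Gzmk, a tryptase-like granzyme, had intensities of 53.5 to 68.9 in the compost rats and 37.6 to 50.8 in the control rats. Its levels were -3.84 and -3.77 in the compost rats against -4.35 and -3.90 in the control rats (0.32 ± 0.23 SE), so the groups did not overlap but were only 0.06 log2 units apart.

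Perforin and the other granule genes overlapped between the groups. Prf1, the gene of perforin, read 0.48 and -0.15 in the compost rats against 0.01 and -0.86 in the control rats, a difference of 0.59 ± 0.39 SE (95% interval -0.45 to 1.63). A separate transcript that the array describes as similar to mouse perforin differed by 0.19 ± 0.26 SE. Nkg7, a membrane protein of cytotoxic granules, read 0.04 and -0.16 in the compost rats against 0.29 and -0.55 in the control rats (0.07 ± 0.33 SE). Ctsw, the gene of cathepsin W, a cysteine protease of cytotoxic lymphocytes, read -1.27 and -1.20 in the compost rats against -0.86 and -1.85 in the control rats (0.12 ± 0.37 SE). For Nkg7 and Ctsw control replicate 1 was the highest rat and control replicate 2 the lowest, with both compost rats between them.

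Klrd1 ran the other way, with both compost rats lower than the control rats. It codes CD94, which pairs with NKG2 proteins into receptors for class I molecules on natural killer cells and some T cells. It read -2.47 and -2.52 in the compost rats against -1.72 and -1.52 in the control rats, a difference of -0.87 ± 0.18 SE or 1.83-fold lower (95% interval -1.36 to -0.39). The nearest arrays of the groups were 0.75 log2 units apart, against 0.05 between the compost rats and 0.20 between the control rats. Both compost arrays lay below both control arrays in 2 of the 11 probes, Klrd1 and Gzmc, and in 15.5% of all tested probes. The two-sided limma test with Benjamini-Hochberg adjustment over all 28410 probes called 0 of the 11 probes, with adjusted p from 0.776 for granzyme B to 1.00, and called 0.00% of all tested probes. At an unadjusted p under 0.05, 3 of the 11 and 913 of all tested probes passed. These p-values rest on the spread between 2 rats per group, which limma draws toward the spread typical of all tested probes. An interval that reaches 0 does not show that the groups were alike.

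**Figure D3:**
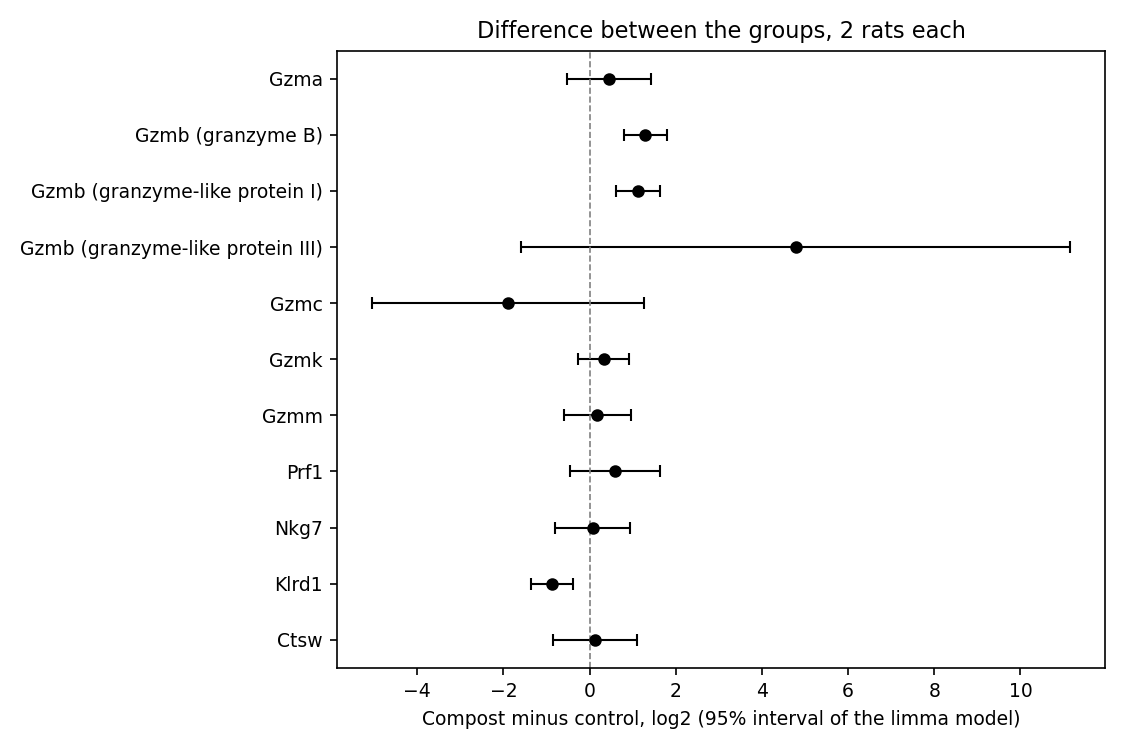
Compost minus control difference of each probe on the log2 scale (horizontal axis) with the 95% interval of the limma model, 2 rats per group. The intervals of granzyme B (0.80 to 1.79), granzyme-like protein I (0.62 to 1.64) and Klrd1 (-1.36 to -0.39) lie on 1 side of 0, and those of granzyme-like protein III and Gzmc are the widest.

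The spread inside the control group was wide for these genes and the spread inside the compost group was narrow. The median distance between the control rats was 0.84 log2 units over the 11 probes and 0.18 over all tested probes. The median distance between the compost rats was 0.15 over the 11 and 0.31 over all. The control rats were at least 0.5 log2 units apart in 7 of the 11 probes and in 16.6% of all tested probes. The compost rats were that far apart in 2 of the 11, Prf1 and granzyme-like protein III, and in 30.2% of all tested probes. Control replicate 2 was at least 0.5 lower in 6 of the 11, namely Gzma, Gzmc, Gzmm, Prf1, Nkg7 and Ctsw, and in 8.93% of all tested probes. It was at least 0.5 higher in 1 of the 11, granzyme-like protein III, and in 7.62% of all tested probes. For Gzma the control rats differed by 1.99-fold. Over the 9 genes, each at its brightest probe, the median of compost minus control was 0.18, beside -0.02 over all 24309 genes and unnamed transcripts. Leaving out control replicate 2 put that median at -0.14, and leaving out control replicate 1 put it at 0.49. Of the 9 genes, 7 had a difference above 0, as did 46.5% of all.

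**Figure D4:**
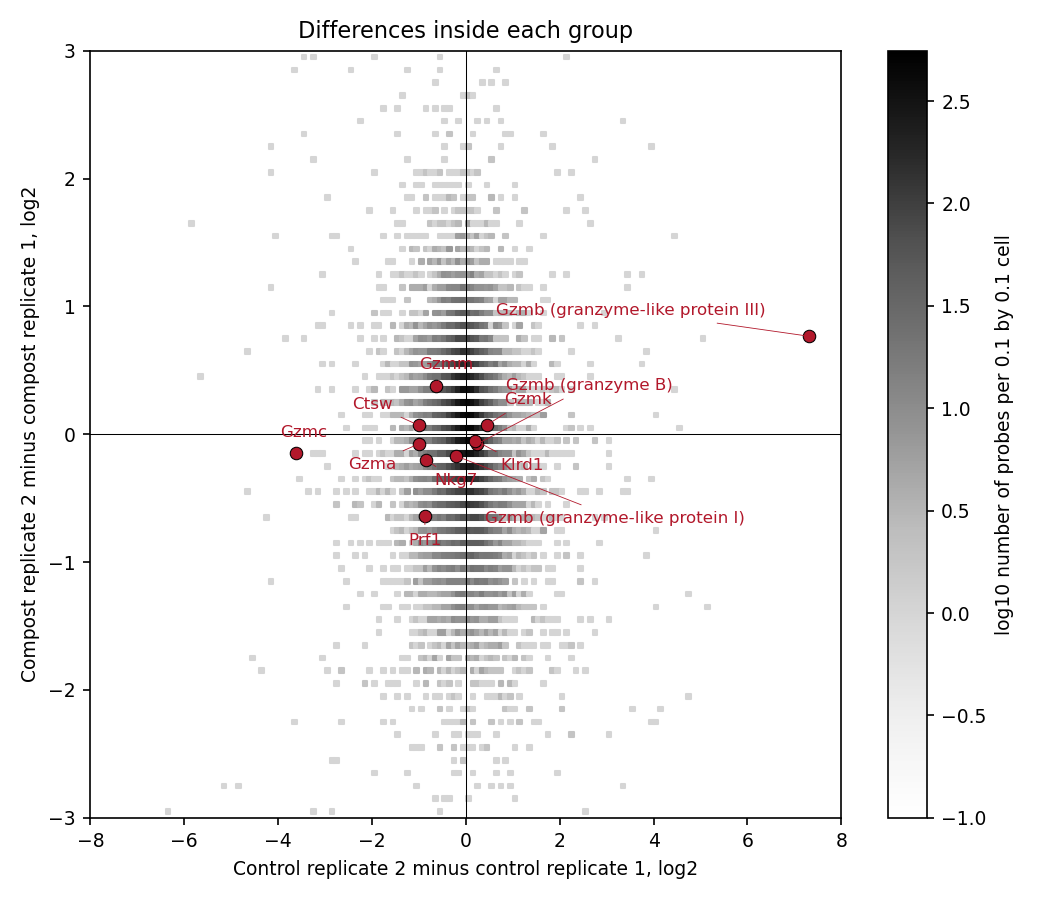
Difference between the control rats (horizontal axis) and between the compost rats (vertical axis), each replicate 2 minus replicate 1 on the log2 scale, for the 11 probes (red) over all tested probes (grey density on a log10 scale); 82 probes lie outside the plotted range. Gzma, Gzmm, Prf1, Nkg7, Ctsw and Gzmc lie left of 0, granzyme-like protein III lies far to the right at 7.31, and most of the 11 lie near 0 on the vertical axis.

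T cell markers had the same order of the control rats. In 14 of the 16 measured T cell genes, of 22 names, control replicate 2 was below control replicate 1, with a median of -1.10, and the median of compost minus control was 0.03 (9 higher, 7 lower). The compost rats were ordered otherwise. Compost replicate 2 was below compost replicate 1 in 2 of the 16, with a median of 0.45, beside -0.05 over the 9 granzyme and cytotoxic genes. The share of all genes with either order was not counted, so the counts cannot be read as particular to T cell genes. Cd8a, the coreceptor of cytotoxic T cells, read -0.14 and 0.20 in the compost rats against 0.84 and -0.85 in the control rats. Cd3e, a signalling chain of the T cell receptor, read -1.24 and -1.07 in the compost rats against -0.73 and -1.65 in the control rats. Cd2, an adhesion molecule of T and natural killer cells, lay apart from its list at 1.60 ± 0.23 SE but passed the background limit in only 1 control rat, with Skap1, Cd6 and Cd5 next by p at -0.41 ± 0.43, -0.36 ± 0.49 and -0.26 ± 0.43. The T cell list summed to 29.8 and 45.3 times the 75th percentile intensity in the compost rats and to 52.1 and 26.2 times in the control rats. In RNA from whole tissue, fewer cytotoxic cells and less RNA per cell cannot be told apart, and the part of T cell number in the levels above was not tested.

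Partners in granule release and killing were mostly higher in compost, without a call. Of 21 names 14 were measured, 11 of them higher and 3 lower, while 46.5% of all genes were higher. The median difference was 0.15 (0.07 without compost replicate 1), and limma called 0. Stx11, a syntaxin of granule fusion, read -3.19 and -3.10 in the compost rats against -3.80 and -4.08 in the control rats (0.80 ± 0.20 SE). Ifng, the gene of interferon gamma, read -3.16 and -3.67 in the compost rats against -4.30 and -4.36 in the control rats (0.92 ± 0.24 SE). Cst7, the cathepsin inhibitor cystatin F, differed by 0.78 ± 0.48 SE, with compost replicate 1 at 0.27 and compost replicate 2 at -1.10, near the control rats. Srgn, the proteoglycan that packs granzymes, differed by 0.56 ± 0.44 SE and Ctsc, the peptidase that activates granzymes, by 0.16 ± 0.18 SE. Serpinb9, an inhibitor of granzyme B, read -1.42 and -3.18 in the compost rats against -2.54 and -2.81 in the control rats (0.38 ± 0.61 SE). Both compost arrays lay above both control arrays in 5 of the 14 genes, Stx11, Ifng, Cst7, Ctsc and Stxbp2, and in 12.7% of all genes.

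Natural killer receptors and adaptors, the company of Klrd1, were split. Of 39 names 19 were measured, 9 higher and 10 lower, with a median of -0.07 and 0 called. Klre1, a lectin-like receptor, read -1.18 and -1.07 in the compost rats against -0.90 and -0.35 in the control rats (-0.50 ± 0.25 SE). Ly49s3, a receptor of the Ly49 family, differed by -1.12 ± 0.35 SE and passed the background limit on 3 of the 4 arrays, missing it in 1 compost rat. The NKG2 genes Klrc2 and Klrc3 differed by -0.07 ± 0.20 and -0.26 ± 0.34 SE. Tyrobp, the signalling adaptor DAP12, differed by 0.60 ± 0.29 SE, and Ly49i2, which passed the background limit in 1 of the control rats, by 1.14 ± 0.73 SE, while Klrk1, the gene of the activating receptor NKG2D, differed by 0.23 ± 0.24 SE and Il2rb by 0.04 ± 0.30 SE. Ncr1 and Klrg1, natural killer cell receptors, and the T cell gene Cd4 were on the array but were not well above background on at least 2 arrays.

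Transcription factors and chemokines of cytotoxic lymphocytes were also split, with 19 of 22 names measured, 8 higher and 11 lower, and 0 called. Their median was -0.11 and their mean, of the other sign, 0.01. Runx3, a factor that drives the CD8 and cytotoxic programme, read -1.18 and -1.35 in the compost rats against -0.46 and -0.58 in the control rats (-0.74 ± 0.18 SE). Tbx21, the gene of T-bet, read -5.20 and -4.85 in the compost rats against -3.85 and -4.73 in the control rats (-0.74 ± 0.35 SE). On the other side lay Prdm1, the gene of Blimp-1 (0.68 ± 0.21 SE), and Xcl1, a chemokine of activated cytotoxic cells (0.72 ± 0.23 SE). Ccl5, another chemokine of cytotoxic cells, read 2.20 and 2.86 in the compost rats against 3.76 and 2.05 in the control rats, so the control rats spanned both compost rats. Both compost arrays lay below both control arrays in 3 of the 19, Runx3, Tbx21 and Hopx, and in 15.2% of all genes. Prdm1 and Xcl1 were among those with both compost arrays above both control arrays.

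**Figure D5:**
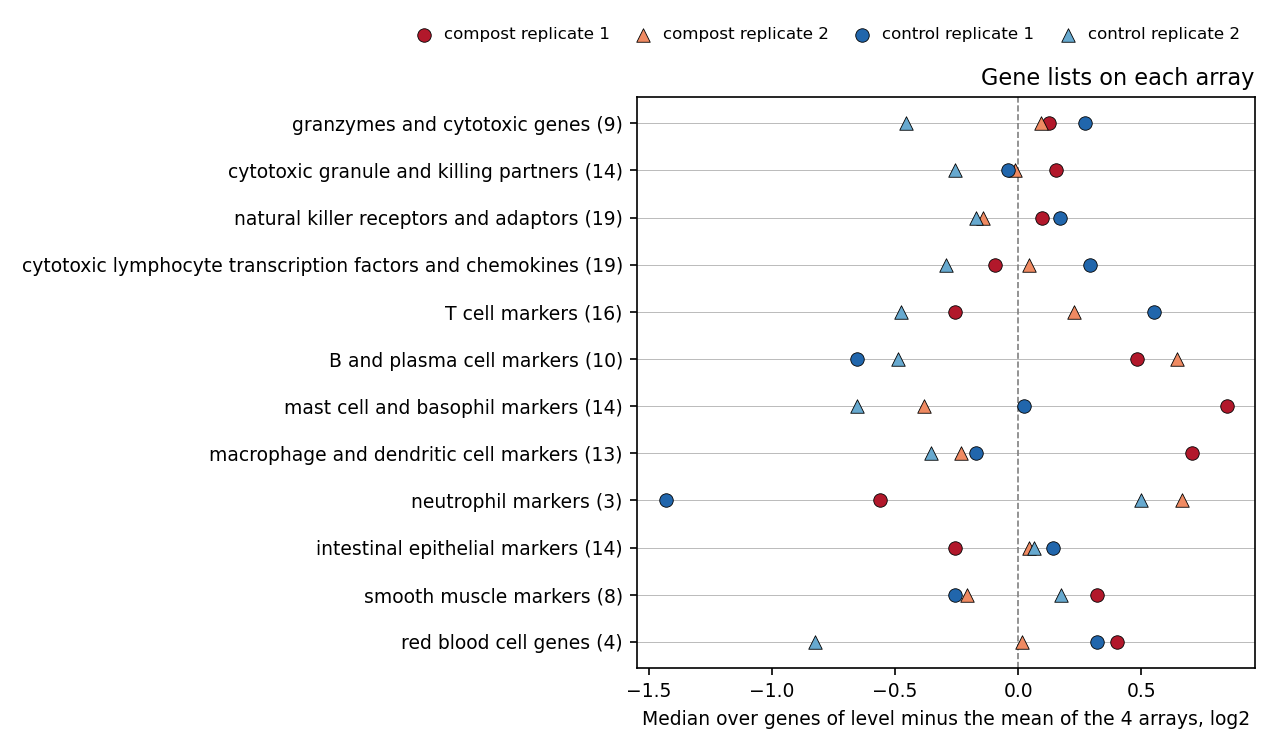
Median over the genes of each list (number in brackets) of level minus the mean of the gene over the 4 arrays, on the log2 scale, 1 point per rat. The 9 granzyme and cytotoxic genes have control replicate 2 lowest at -0.46 and the other 3 rats between 0.09 and 0.27; the T cell list also has control replicate 1 highest and control replicate 2 lowest, while the B and plasma cell list separates the groups.

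Lists of other cell types ordered the rats in several ways, and the mast cell, macrophage and red blood cell lists, like the cytotoxic genes, had control replicate 2 lowest by their median. All 10 measured B and plasma cell genes were higher in compost, beside 46.5% of all genes, with a median of 1.31 (0.63 with normexp background correction). First by p were Cd22 (1.37 ± 0.30 SE, passing the background limit in 1 control rat), Cd79b (2.43 ± 0.64), Mzb1 (1.69 ± 0.49) and Cd72 (1.45 ± 0.42). Their sum was 16.6 and 10.2 times the 75th percentile intensity in the compost rats and 4.62 and 6.63 times in the control rats. Macrophage and dendritic cell genes, 13 of 20 names measured, had a median of 0.53 with compost replicate 1 highest (0.05 without that rat), and summed to 363 and 259 times the 75th percentile intensity in the compost rats and to 279 and 362 times in the control rats. That sum mostly followed the brightest gene of the list, Lyz2. Its levels were 8.04 and 7.63 in the compost rats against 7.76 and 8.31 in the control rats. The red blood cell list stood at -0.82 log2 units from its mean over the 4 rats in control replicate 2. The 14 measured epithelial genes had a median of -0.08, the 8 smooth muscle genes 0.12, the 4 red blood cell genes 0.41 and the 3 neutrophil genes 0.93. The neutrophil genes did not go together: S100a9 differed by 0.93 ± 0.67 SE, S100a8 by 0.96 ± 1.88 and Camp by -0.56 ± 0.25. Their median was 0.35 with normexp background correction and 0.19 over probes well above background on all 4 arrays. The part of these cell types in the granzyme values was not tested.

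Upstream sequence was examined because Gzma, Gzmc, Gzmm, Prf1, Nkg7 and Ctsw shared a lower level in control replicate 2 than in control replicate 1. For Gzmc it was control replicate 1 that stood apart from the other rats. RefSeq's promoter table (GRCr8) held 7 of the 9 genes, all but Klrd1 and Ctsw. The 250 bases before the start of each were searched on both strands for 8 motifs: TGTGGT (the core bound by Runx factors), AGGTGT and AGGTGTG (T-box), TGANTCA (AP-1), ACTTCCT and CAGGAAG (Ets), TGACGTCA (CRE) and TATAAA, where the T-box pair overlap each other and so may the Ets pair. The letters TGTGGT were found in all 7, Gzma, Gzmb, Gzmc, Gzmk, Gzmm, Nkg7 and Prf1, and in 14.5% of all 33469 promoters. The 7 include genes without the shared order of the control rats. Control replicate 2 minus control replicate 1 was 0.45 for Gzmk. For Gzmb it was 0.23 at granzyme B, -0.21 at granzyme-like protein I and 7.31 at granzyme-like protein III. AGGTGT was found in Gzma (11.6% of all promoters), TGANTCA in Gzmb (6.34%), ACTTCCT in Prf1 (7.08%), CAGGAAG in Nkg7 and Prf1 (10.2%) and TATAAA in Gzmb and Gzmk (12.9%). AGGTGTG (4.8%) and TGACGTCA (1.59%) were found in none of the 7 windows. Gzmb and Gzmc each held 3 matches of TGTGGT and the other 5 genes held 1 each. The upstream bases of 4 genes are shown 5′ to 3′ on the strand of the gene, with TGTGGT or its reverse complement in capitals: Gzmb and Gzmc, the neighbours with 3 matches and unlike patterns across rats, and Gzma and Prf1, which shared a low control replicate 2. They lie at chr15:34462470-34462719 (minus strand) for Gzmb, chr15:34440007-34440256 (minus strand) for Gzmc, chr2:46485697-46485946 (minus strand) for Gzma and chr20:29788790-29789039 (plus strand) for Prf1.
Gzmb: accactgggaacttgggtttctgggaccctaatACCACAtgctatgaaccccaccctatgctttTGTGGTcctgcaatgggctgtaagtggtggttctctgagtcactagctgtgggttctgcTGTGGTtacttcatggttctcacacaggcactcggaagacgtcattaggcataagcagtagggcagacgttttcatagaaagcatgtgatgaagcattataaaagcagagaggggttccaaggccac
Gzmc: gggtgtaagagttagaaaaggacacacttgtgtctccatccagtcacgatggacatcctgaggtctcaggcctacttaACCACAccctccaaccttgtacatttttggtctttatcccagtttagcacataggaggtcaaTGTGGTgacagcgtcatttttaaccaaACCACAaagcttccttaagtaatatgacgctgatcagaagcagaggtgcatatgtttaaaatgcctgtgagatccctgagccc
Gzma: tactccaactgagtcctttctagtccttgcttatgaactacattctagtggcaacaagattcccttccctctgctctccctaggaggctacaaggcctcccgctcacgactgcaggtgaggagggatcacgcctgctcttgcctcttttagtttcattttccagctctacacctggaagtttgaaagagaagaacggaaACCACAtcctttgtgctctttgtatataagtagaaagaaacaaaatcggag
Prf1: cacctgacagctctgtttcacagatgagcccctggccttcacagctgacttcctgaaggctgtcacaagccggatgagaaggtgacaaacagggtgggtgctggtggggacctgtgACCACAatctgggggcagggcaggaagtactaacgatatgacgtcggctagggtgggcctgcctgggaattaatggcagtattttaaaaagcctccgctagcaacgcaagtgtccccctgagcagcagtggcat
The first base of the matches stood 217, 186 and 127 bases before the start in Gzmb and 172, 110 and 83 bases before it in Gzmc. It stood 51 bases before the start in Gzma and 134 in Prf1. A match of letters is a description and not a site in use.

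The genes whose profile over the 4 rats was most like the mean of the 9 genes were A3galt2, Arhgef3, Tapbpl, Commd7, Hyou1, Pomt2, Rangrf and Cenpu. Their centred log2 profiles lay within a root mean square distance of 0.02 to 0.04 of that mean over 4 rats. The mean holds granzyme-like protein III and Gzmc, which stand apart in control replicate 1 in opposite directions. Likeness to a single probe was also measured, after the values had been seen. Nearest to granzyme B were Sorcs2, Rpl3l, Ido1, Ccr6, Mrgprx3, Lag3, Slc7a3 and Bhlhe41, at distances of 0.09 to 0.13. Nearest to Gzma were Sash3, Def6, Lpxn, Hcls1, Cd52, Lcp2, Ncf1 and Maff, at distances of 0.03 to 0.08. All had control replicate 2 lowest, which follows from their choice by likeness to Gzma. With 4 rats and 24309 genes such likeness is a description.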

How the data were processed

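Total RNA of small intestine from 4 rats was Cy3-labelled and put on 1 array each. The deposited scanner files, from Agilent Feature Extraction 9.1.3.1 per the file headers and the submitters' processing notes, hold a processed intensity for each spot that is detrended and background-subtracted but not scaled between arrays. The authors' deposited value table holds the same intensity rounded, within 0.50% of the scanner value. Saturated spots stayed in, and spots with an outlier flag were dropped, which cost 31 probes. The log2 intensity was averaged per probe and each array's 75th percentile subtracted. Of 41012 probes, the 28410 that exceeded background clearly, per the scanner's flag, on 2 or more of the 4 arrays were compared by limma 3.58.1 (lmFit, eBayes; R 4.3.3) with Benjamini-Hochberg adjustment, and the fit was tested on simulated data. For counts over genes, the brightest probe stood for each gene. Array names were updated through RefSeq (GRCr8): accessions named 10835 probes, symbols 5201 and synonyms 3488, and 21488 kept their name. The genes described, the lists and the alternatives were chosen with earlier results of these data known. The rule for named genes took every probe of the 9 genes, up to 4 genes of a list by smallest p with 14 genes of interest fixed by name, and the 8 nearest profiles. Other genes named were chosen after their values were seen. One gene that the rule names is not reported here. Lists covered granule partners, natural killer receptors, transcription factors and chemokines, T cells, B and plasma cells, mast cells, macrophages, neutrophils, epithelium, smooth muscle and red blood cells. Alternatives were normexp background correction, quantile or median scaling, the value table, other filters, leaving out each array, and the replicate number as a block.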

Additional observations from a re-analysis of the deposited data

How the results depend on the processing

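Over 121 values of the 11 probes under the alternatives, 115 kept their direction. That count is inflated, because the other filters and the replicate block cannot change the difference of these probes. Their agreement was fixed in advance, and the value table holds the same intensity rounded. The 6 that turned did so when 1 rat was left out (Gzma at -0.044 without control replicate 2), over ranges of -0.04 to 0.95 for Gzma, -0.14 to 0.49 for Gzmm, -0.35 to 0.49 for Nkg7 and -0.38 to 0.62 for Ctsw. Granzyme B ranged from 1.18 to 1.41, granzyme-like protein I from 1.02 to 1.23 and Klrd1 from -0.97 to -0.77 when 1 rat was left out. Granzyme-like protein III was called without control replicate 2 (8.43, adjusted p = 0.0480 by limma), where control replicate 1 was the lone control, assumed to vary like the other rats, and it was not called under the other alternatives. The median of the 9 genes ranged from -0.14 to 0.49 with 1 rat left out. With normexp background correction 1 probe in all was called, and 1 of the 9 genes had both compost rats above both control rats, against 2. That count was 2 to 7 with 1 rat left out, where 3 arrays separate more readily, and 1 without Gzmb and Gzmc, an alternative chosen after seeing the data. By the processing described above, 12.7% of all genes had this order. The share of all genes under the alternatives was not set beside these counts, so they cannot be read as an excess. The probes called ranged from 0 to 2 when 1 rat was left out. The fit with the replicate block called 0 probes, as did the unblocked one. The labels do not say that a replicate number marks shared litters or days. Deviations of same-numbered rats correlated at -0.04 over all probes, and whether such rats share more than a number was not tested. With 1 rat left out, list medians ranged from -0.32 to 0.40 for natural killer receptors, -0.43 to 0.29 for transcription factors and chemokines, -0.54 to 0.51 for T cell markers, -0.03 to 1.03 for mast cell markers, 0.05 to 1.01 for macrophage markers, 0.07 to 0.22 for granule partners, -0.16 to 0.38 for smooth muscle markers, -0.84 to 1.90 for neutrophil markers, -0.32 to 0.02 for epithelial markers and -0.26 to 1.09 for red blood cell genes. The cause was not tested.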
